A study of Mus musculus with 5 samples.

Results

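The spliceosomal small nuclear RNA (snRNA) genes were examined in mouse embryonic stem (ES) cells with and without C3G, the guanine nucleotide exchange factor encoded by Rapgef1. They were taken as the genes that GENCODE M21 types as snRNA and that reached at least 1 TPM (transcripts scaled to a fixed total per sample, a level per unit of length) in at least 2 of the 5 samples. This rule gave 44 of the 1385 snRNA genes in the table, among 55147 gene symbols in all. The members were thus chosen by their annotated type and their level, whichever group it was reached in. These levels are a description here, and the set was taken up with the difference between the groups already seen.

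RNA sequencing was done on 3 samples of wild type (WT) E14Tg2a cells and 2 samples of C3G-/- cells derived from them. E14Tg2a is an ES cell line used as a standard feeder-independent parent for mouse gene targeting. In the C3G-/- cells, a puromycin cassette was knocked in by CRISPR in place of the part of the gene from the second to the fourth exon. The C3G-/- cells were nucleofected, selected with puromycin and picked as colonies, whereas WT was the parent line, so these steps differ along with the genotype. Both groups were grown without other treatment on gelatin in GMEM with serum and LIF (leukaemia inhibitory factor). Trizol RNA was treated with Turbo DNase. The study made several C3G-/- clones, and which clone each sample came from is not given in the sources used here, so the p-values measure the spread between these samples only.

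Rapgef1, the targeted gene, had 11.6, 10.3 and 9.64 TPM in WT against 3.92 and 5.55 TPM in C3G-/-, so the groups did not overlap. In these unscaled values, 75.7% of all genes tested were lower in both C3G-/- samples than in every WT sample. Rapgef1 transcripts were still counted, and these values do not tell which exons they came from. The log2 fold change of Rapgef1 after scaling was -0.41 ± 0.06 (SE, adjusted p = 0.00444, limma). The defining ES cell markers Pou5f1, Sox2, Nanog, Esrrb and Zfp42 were present in every sample, from 27.6 TPM (Esrrb) to 399.8 TPM (Pou5f1), and none of them passed the test. The first C3G-/- sample stood apart from the other 4. Transcripts of protein-coding genes took 18.6% of its TPM, against 26.0% in the second C3G-/- sample and 28.8% to 31.8% in WT. Median-of-ratios scaling, which sets the typical gene equal between samples, divided the WT samples by 1.33, 1.22 and 1.10 and the C3G-/- samples by 0.618 and 0.905. Most results below are given on both scales, and a difference that depends on the scale is named. The limma p-values from all 5 samples as deposited do not use each gene's own spread between samples, and can be small for a gene that varies widely. Levels in bulk RNA do not tell fewer cells from less RNA per cell.

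snRNAs are short, uridine-rich, non-polyadenylated RNAs that form the core of the spliceosome together with proteins, as small nuclear ribonucleoproteins (snRNPs). In the major spliceosome, U1 pairs with the 5′ splice site, U2 pairs with the branch point, and U4, U5 and U6 enter together as the tri-snRNP, in which U4 holds U6 inactive by base pairing. In the minor spliceosome, which removes a small class of introns, U11 and U12 take the places of U1 and U2, and U4atac and U6atac those of U4 and U6. RNA polymerase II makes all of these but U6 and U6atac, which RNA polymerase III makes. Mouse U1 genes come as U1a and U1b forms, the latter known as embryonic forms. U1, U2 and U6 come from multicopy genes with many pseudogenes.

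The members fell into 6 families by sequence, with 13 U1 genes, 12 U2 genes, 4 U4 genes and 1 gene each for U12, U6atac and U4atac, while 12 members were less than 80% identical to any family reference. The 44 genes had 36 distinct sequences, because 13 of them fell into 5 groups of identical copies. The sequences of the RNAs that carry the results are shown as DNA, with the strand of the gene, from the GENCODE M21 transcripts (GRCm38). For U1, the capitals mark the stretch that pairs with the 5′ splice site. Gm22513 (chr12:54696782-54696945, plus strand, intergenic) is nearest to the U1a gene Rnu1a1, and the other 3 are U1b forms on chromosome 3, in the cluster that holds Gm22614 (chr3:96488729-96488893, plus strand, intergenic), Rnu1b6 (chr3:96460024-96460189, minus strand, in an intron of the lincRNA Gm10685 on the opposite strand) and Rnu1b1 (chr3:96359953-96360117, minus strand, intergenic).
Gm22513: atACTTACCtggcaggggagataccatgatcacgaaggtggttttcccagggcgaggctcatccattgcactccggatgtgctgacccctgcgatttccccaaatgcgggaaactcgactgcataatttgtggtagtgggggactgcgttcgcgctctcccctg
Gm22614: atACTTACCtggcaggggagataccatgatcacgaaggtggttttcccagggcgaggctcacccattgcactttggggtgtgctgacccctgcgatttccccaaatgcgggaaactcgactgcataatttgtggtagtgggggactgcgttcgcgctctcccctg
Rnu1b6: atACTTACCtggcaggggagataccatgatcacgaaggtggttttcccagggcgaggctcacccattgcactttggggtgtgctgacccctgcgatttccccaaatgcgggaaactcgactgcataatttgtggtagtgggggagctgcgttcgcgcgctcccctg
Rnu1b1: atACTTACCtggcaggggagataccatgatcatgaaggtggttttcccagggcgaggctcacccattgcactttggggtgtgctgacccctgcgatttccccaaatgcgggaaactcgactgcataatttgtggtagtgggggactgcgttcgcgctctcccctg

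Counted from 1 at the 5′ end, Gm22614 differs from Rnu1b1 by T33C alone, Gm22513 differs from Rnu1a1 by T60C alone, and Gm24305, the other U1a gene, differs from Rnu1a1 by A26G alone. Reads from such copies can be told apart only where they cross these bases. The 7 letters in capitals, ACTTACC, were present in 13 of 13 U1 members and in 65 of 1383 annotated snRNA genes with a sequence (4.70%, read on the gene's own strand).

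For U2, the capitals mark the bases that pair with the branch point. Rnu2-10 (chr11:101658238-101658428, plus strand, intergenic) has 3 identical copies within the same cluster on chromosome 11, and Gm25360 (chr1:72226240-72226430, plus strand, intergenic) is the U2 gene with the highest mean level.
Rnu2-10: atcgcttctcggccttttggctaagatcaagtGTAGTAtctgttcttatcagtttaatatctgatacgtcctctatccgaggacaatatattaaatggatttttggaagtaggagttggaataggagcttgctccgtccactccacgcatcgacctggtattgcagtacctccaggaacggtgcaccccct
Gm25360: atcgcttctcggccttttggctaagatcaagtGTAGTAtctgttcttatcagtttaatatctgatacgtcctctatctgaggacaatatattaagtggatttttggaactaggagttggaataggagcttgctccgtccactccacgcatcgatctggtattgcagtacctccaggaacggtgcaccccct
Gm25360 differs from Rnu2-10 by 4 substitutions, C78T, A95G, G109C and C154T. The identical pair Gm23444 and Gm23472, on chromosomes 11 and 1, differs from Rnu2-10 by G109C alone. All 12 U2 members carry GTAGTA, which 51 of 1383 annotated snRNA genes hold on their own strand (3.69%).

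For U4, the capitals mark the longest stretch whose reverse complement lies in U6, 8 bases near the 5′ end. The 2 abundant U4 genes are close neighbours on the plus strand of chromosome 5, Gm24407 at chr5:115490254-115490394 and Gm24265 at chr5:115489459-115489599, both intergenic. They differ by G88A and C99A, with Gm24265 as the reference.
Gm24407: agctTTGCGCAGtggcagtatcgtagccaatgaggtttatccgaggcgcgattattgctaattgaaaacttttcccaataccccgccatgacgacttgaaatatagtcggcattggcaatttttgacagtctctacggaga
Gm24265: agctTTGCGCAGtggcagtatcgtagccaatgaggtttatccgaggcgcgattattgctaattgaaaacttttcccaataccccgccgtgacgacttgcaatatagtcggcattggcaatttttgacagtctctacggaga
Their annotation carries no U4 name. They, U6atac and U4atac were assigned from their known sequences, a choice made after seeing the data.

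For the minor spliceosome, the capitals mark the branch point pairing bases of Rnu12 (chr15:83149644-83149794, plus strand, intergenic) and, in the U6atac gene Gm25541 (chr2:27539805-27539930, minus strand, intergenic), the longest stretch complementary to the U4atac gene Gm22710.
Rnu12: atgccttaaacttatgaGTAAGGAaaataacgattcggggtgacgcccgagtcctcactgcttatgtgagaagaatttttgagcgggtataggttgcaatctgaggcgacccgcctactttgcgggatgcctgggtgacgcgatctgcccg
Gm25541: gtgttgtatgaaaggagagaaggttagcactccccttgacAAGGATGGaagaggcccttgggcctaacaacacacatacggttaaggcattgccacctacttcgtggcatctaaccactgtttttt

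Several spliceosomal RNAs could not be read from these values. No transcript shorter than 122 bases had a value above 0 in any sample, among 4585 such transcripts of all kinds. This left out 1081 of the 1385 snRNA genes, with all 503 U6 genes, all 10 U5 genes and all 12 genes of U7, the histone mRNA processing snRNA. A listed 0 for these genes therefore gives no level. Of the 304 snRNA genes of at least 122 bases, 233 were also listed at 0 in every sample, among them the U1a gene Rnu1a1 (164 bases) and the U11 gene Rnu11 (134 bases), and no gene of the U11 family had a value above 0.

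**Figure D1:**
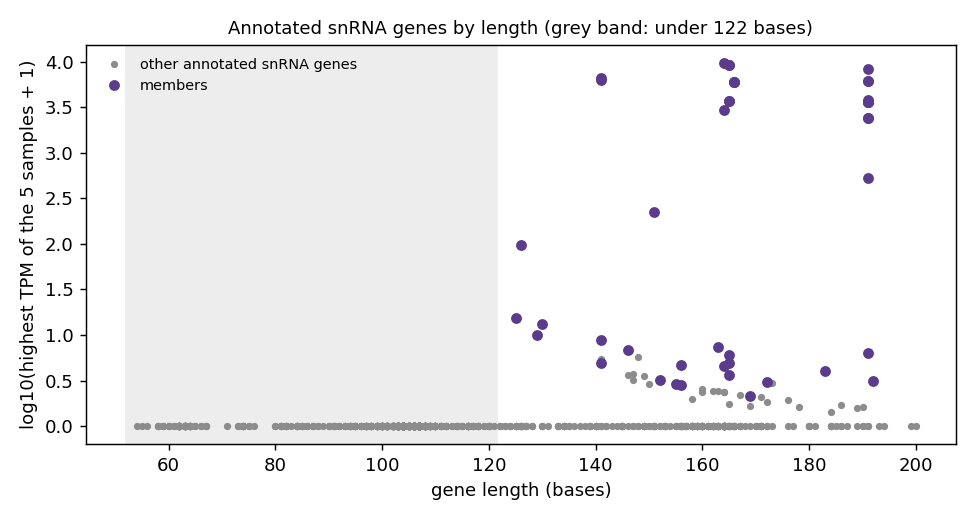
Each point is an annotated snRNA gene, with its length in bases on the x axis and the log10 of its highest TPM of the 5 samples plus 1 on the y axis, and members in purple. All genes under 122 bases (grey band) lie at 0, and the members form an upper group and a lower group.

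Between 122 bases and 205 bases, the value of a single sequenced fragment also changed steeply with length. Among transcripts of one length, low values came in steps, which in the first WT sample were 11.6 TPM at 126 bases, 2.29 TPM at 151 bases, 1.30 TPM at 165 bases and 0.47 TPM at 205 bases. The steps were 0.27 TPM to 0.47 TPM at 205 bases over the 5 samples. The step at 126 bases was 24.2 to 26.8 times that at 205 bases in the 5 samples, and the step at 151 bases 4.84 to 5.09 times it. Length thus entered the values in nearly the same way in both groups, and comparisons between samples within a family stand on that. Levels of families of unequal length are not compared.

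The members split into an abundant and a low set, with the division at a mean of 20 TPM set after seeing the values. The 24 abundant genes, with 16 distinct sequences, had means over 20 TPM and no single value below 24.2 TPM. The 20 low genes had means from 0.696 to 4.09 TPM, and 16 of them were listed at 0 in at least 1 sample. Of the abundant genes 18 were intergenic, while 17 of the 20 low genes lay within another annotated gene, mostly in introns. Just inside the filter, Gm23435 was listed at 0, 1.85 and 1.63 TPM in WT and at 0 in both C3G-/- samples, and just outside it, Gm22656 was listed at 0, 1.06 and 0.93 TPM in WT and 0 and 0.84 TPM in C3G-/-. In all, 27 snRNA genes were above 0 but below the filter, 24 of them in 1 sample only.

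As a class, the members had higher values in the C3G-/- samples on both scales. The scales are not separate checks here, since scaling raised C3G-/- relative to WT for every gene. The summed TPM of the members as deposited was 71926, 68918 and 62706 in WT and 90719 and 92942 in C3G-/-. Both C3G-/- samples lay above all WT samples, and the ratio of the geometric means was 1.36. After scaling the sums were 53958, 56583 and 56902 in WT and 146867 and 102744 in C3G-/-, a log2 difference of 1.14. The exact two-sided permutation test gave p = 0.2 on both scales, the smallest that 3 samples against 2 allow. Members made up 35.0% to 36.3% of the TPM of all genes with a longest transcript under 250 bases in WT and 42.3% and 39.6% in C3G-/-, a difference of 5.36 percentage points (exact permutation test, p = 0.2). On this measure, which no scaling enters, the groups did not overlap. With a limit of 400 bases they did, at 12.6%, 11.8% and 9.92% in WT and 12.2% and 14.9% in C3G-/-, a difference of 2.11 percentage points (exact permutation test, p = 0.4).

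Scaling shifts every family by the same amount on the log2 scale. The U1 difference changed sign with it. U2, U4 and U12 were above WT in both C3G-/- samples as deposited. They were therefore bound to be above WT after scaling, which raised C3G-/- relative to WT. The U1 sum as deposited was 46377, 50418 and 38841 TPM in WT and 33072 and 56241 TPM in C3G-/-. The C3G-/- samples lay on either side of the WT samples, with a log2 difference of -0.06. After scaling, both were above WT and the log2 difference was 0.64.

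The U2 sum as deposited was 21965, 15983 and 19940 TPM in WT and 44364 and 28700 TPM in C3G-/-. The groups did not overlap, and the ratio was 1.87 as deposited and 3.03 after scaling. The U4 sum as deposited was 3436, 2409 and 3718 TPM in WT and 12939 and 7806 TPM in C3G-/-. Of the 5 families with a readable sum, U4 had the highest ratio on both scales, at 3.21 as deposited and 5.21 after scaling.

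Both ratios depended on which C3G-/- sample was used. Without the first, the log2 difference of U2 after scaling was 1.01, and without the second 2.19, and for U4 the same values were 1.74 and 3.02. As deposited, they were 0.58 and 1.21 for U2 and 1.32 and 2.05 for U4. The first C3G-/- sample was thus above the second for both families, whereas for U1 it was the lower one on both scales.

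The U12 RNA was listed at 54.9, 50.8 and 99.9 TPM in WT and 225 and 143 TPM in C3G-/-, and read in steps this is about 24, 22 and 49 fragments in WT and 170 and 80 in C3G-/-. The ratio was 2.75 as deposited and 4.47 after scaling, without overlap on either scale. The U6atac RNA was listed at 58.1, 24.2 and 96.5 TPM in WT and 93.9 and 35.8 TPM in C3G-/-, only about 5, 2 and 9 fragments against 14 and 4. These groups overlapped on both scales. The U4atac RNA was above 0 in 1 sample of each group only, at 3.63 and 14.6 TPM. Exact permutation tests of the 5 families after scaling gave p = 0.2 for U1, U2, U4 and U12 (0.25 after Benjamini-Hochberg adjustment over the 5) and p = 0.6 for U6atac.

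**Figure D2:**
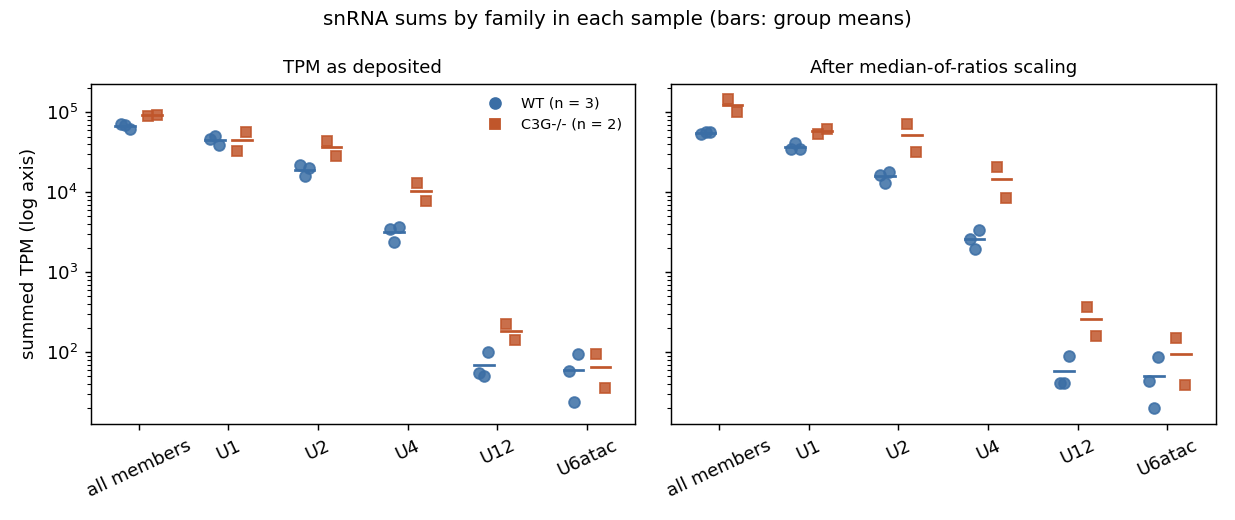
Summed TPM of all members and of each family (log axis) in each of the 3 WT (blue) and 2 C3G-/- samples (orange), as deposited on the left and after scaling on the right, with group means as bars. U2, U4 and U12 lie higher in both C3G-/- samples in both panels, U1 only after scaling, and U6atac overlaps in both.

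Ratios between families within a sample do not depend on the scaling. U4 over U1 was 0.0741, 0.0478 and 0.0957 in WT and 0.391 and 0.139 in C3G-/-. U4 over U2 was 0.156, 0.151 and 0.186 in WT and 0.292 and 0.272 in C3G-/-. In both ratios the C3G-/- samples were above all WT samples, by 3.34 times for U4 over U1 and 1.72 times for U4 over U2, and for the latter the C3G-/- samples lay close together. Without the first C3G-/- sample the log2 differences of these ratios were 0.994 and 0.732, and without the second 2.49 and 0.832.

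U2 over U1 was 0.474, 0.317 and 0.513 in WT and 1.34 and 0.510 in C3G-/-, so that the second C3G-/- sample lay within the WT range and only the first above it. U12 over U1 likewise had its second C3G-/- value, 0.00255, just under the highest WT value, 0.00257. U12 over U2 was 0.00250, 0.00318 and 0.00501 in WT and 0.00507 and 0.00499 in C3G-/-, which overlapped. The exact permutation p was 0.2 for the ratios of U4 and 0.4 for the other 3, and 0.48 for all of them after adjustment over the 6 ratios compared, and it was 0.8 for U1b over U1a. These ratios were chosen after seeing the data.

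**Figure D3:**
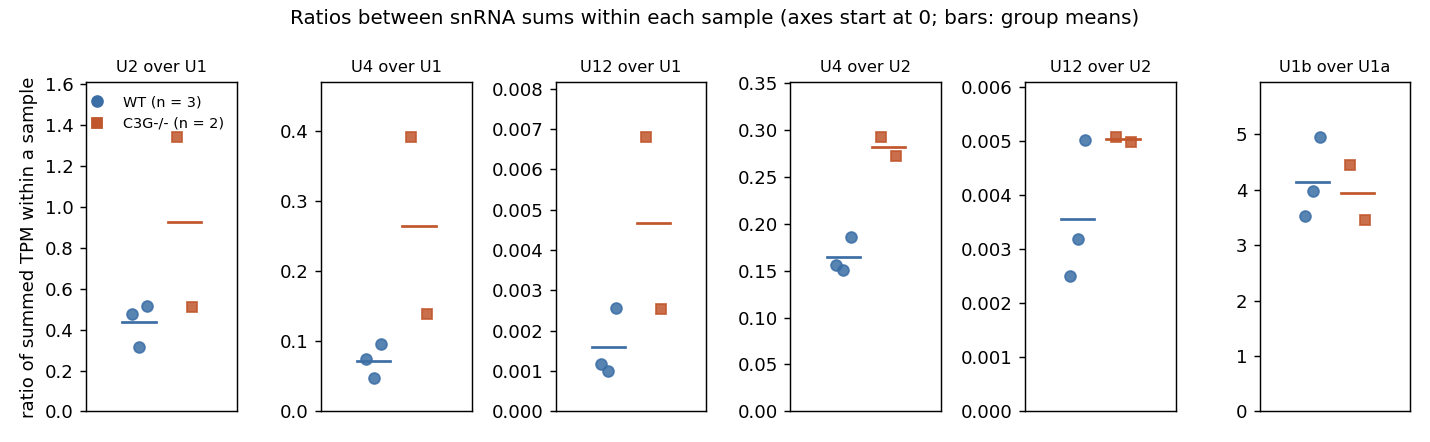
Ratio of summed TPM between families, and between U1b and U1a genes, within each of the 3 WT (blue) and 2 C3G-/- samples (orange), each panel on its own linear axis from 0, with group means as bars. Only U4 over U1 and U4 over U2 have both C3G-/- samples above every WT sample.

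Of the 9 abundant U1 genes, 3 with 2 distinct sequences rose after scaling and 1 as deposited, where 14.1% and 1.45% of all genes tested were called higher. Gm22513, a U1a gene, was at 8722, 8573 and 5500 TPM in WT and 4649 and 9713 TPM in C3G-/-. Its groups overlapped as deposited, and its log2 fold change after scaling was 0.55 ± 0.30 (SE, limma, adjusted p = 0.206). Gm22614 and its identical copy Gm25890 were each listed at 8203, 8917 and 6786 TPM in WT and 6006 and 9099 TPM in C3G-/-, with 0.60 ± 0.25 (limma, adjusted p = 0.113).

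Rnu1b6 and its copies Gm26232 and Gm24830 were each at 4792, 5597 and 4603 TPM in WT and 3062 and 6017 TPM in C3G-/-, with a log2 fold change of 0.49 ± 0.24 after scaling (limma, adjusted p = 0.181). As deposited, the log2 fold changes of Gm22513, Gm22614 and Rnu1b6 were -0.15, -0.10 and -0.21. Rnu1b1 and its copy Rnu1b2 stood apart from these, each at 2664, 2828 and 2461 TPM in WT and 2895 and 3669 TPM in C3G-/-. They rose by a log2 fold change of 1.0 ± 0.19 after scaling (limma, adjusted p = 0.0110), while as deposited the change of 0.30 did not pass (limma, adjusted p = 0.264), nor did the scaled one without the first C3G-/- sample (limma, adjusted p = 0.0510). The single base T33C that separates Rnu1b1 from Gm22614 thus separated a sequence called higher after scaling from one that was not called, and the difference between them was not tested. The identical genes share their reads evenly in these values, so their values are 1 measurement.

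Gm24305, named beyond the rule for named genes, rose after scaling by 1.30 ± 0.22 (SE, limma, adjusted p = 0.00839), from 1541, 1553 and 1030 TPM in WT to 1431 and 2932 TPM in C3G-/-. Its groups overlapped as deposited, where the log2 fold change was 0.60 (limma, adjusted p = 0.0373). Over the abundant U1 genes, U1b genes made up 77.9% to 83.2% of the U1 values in WT and 81.6% and 77.5% in C3G-/-, so the makeup by U1a and U1b overlapped between the groups. By distinct sequence, 2 of the 5 U1 shares were higher in C3G-/- without overlap and 3 overlapped, which was not tested.

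Of the 11 abundant U2 genes, with 7 distinct sequences, 10 genes with 6 distinct sequences rose after scaling, and the same number passed as deposited. Of all genes tested, 14.1% and 1.45% were called higher on these scales. The log2 fold changes of the 11 ran from 1.15 to 1.87 after scaling. Gm23444 and its copy Gm23472 were each listed at 2638, 1964 and 2253 TPM in WT and 6192 and 4214 TPM in C3G-/-, without overlap. Their log2 fold change was 1.87 ± 0.35 after scaling (SE, limma, adjusted p = 0.0113) and 1.17 as deposited (limma, adjusted p = 2.47e-05). Gm25360 was at 3859, 2650 and 3307 TPM in WT and 8314 and 5303 TPM in C3G-/-, again without overlap, with 1.74 ± 0.39 after scaling (limma, adjusted p = 0.0203). That call was lost without the first WT sample, the second one or the first C3G-/- sample (limma, adjusted p from 0.0525 to 0.0650).

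Rnu2-10 and its 3 copies were each at 1874, 1520 and 1773 TPM in WT and 3645 and 2319 TPM in C3G-/-, and rose by 1.46 ± 0.36 after scaling (limma, adjusted p = 0.0276) and by 0.76 as deposited (limma, adjusted p = 0.00861). The scaled call was lost without the same samples as for Gm25360 (limma, adjusted p from 0.0581 to 0.0808). Gm24497 was the abundant U2 gene that did not pass, at 2083, 887 and 1696 TPM in WT and 2379 and 1677 TPM in C3G-/-. Its groups overlapped as deposited, with a log2 fold change of 0.45 (limma, adjusted p = 0.111). After scaling both C3G-/- samples were above WT, with 1.15 ± 0.45 (limma, adjusted p = 0.103). Gm24497 was named after its values were seen. It differs from Rnu2-10 by G109C and C186A. Gm25939, a U2 gene with a far lower level, at 154 to 244 TPM in WT and 530 and 285 TPM in C3G-/-, was among the 10.

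The makeup of the U2 sum was compared within samples, where no scaling enters. Rnu2-10 and its copies made up 34.1% to 38.0% of it in WT and 32.9% and 32.3% in C3G-/-. Gm23444 and Gm23472 together made up 22.6% to 24.6% in WT and 27.9% and 29.4% in C3G-/-. Neither of these shares overlapped between the groups, the first being lower and the second higher in C3G-/-. Of the 7 distinct U2 sequences, 2 had higher shares and 2 lower shares in C3G-/- without overlap, and the shares of the other 3 overlapped. Shares of the same sum depend on each other, and they were not tested, so no change of makeup is concluded.

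The pair of abundant U4 genes moved together. Gm24407 was at 1841, 1232 and 1899 TPM in WT and 6615 and 4112 TPM in C3G-/-, and its log2 fold change was 2.38 ± 0.41 after scaling (SE, limma, adjusted p = 0.00882) and 1.68 as deposited (limma, adjusted p = 7.23e-10). Gm24265 was at 1595, 1165 and 1812 TPM in WT and 6320 and 3691 TPM in C3G-/-, with 2.39 ± 0.43 after scaling (limma, adjusted p = 0.0101) and 1.69 as deposited. Both C3G-/- samples were above every WT sample for both genes, and Gm24407 took 51.1% to 53.6% of the U4 sum in all 5 samples. Rnu12 rose by 2.14 ± 0.46 after scaling (limma, adjusted p = 0.0182) and by 1.44 as deposited (limma, adjusted p = 3.58e-06), and Gm25541 did not pass on either scale (limma, adjusted p = 0.42 after scaling). The scaled call of Rnu12 was lost without the first WT sample (limma, adjusted p = 0.0557) or the first C3G-/- sample. The p-values as deposited given here do not use each gene's own spread.

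**Figure D4:**
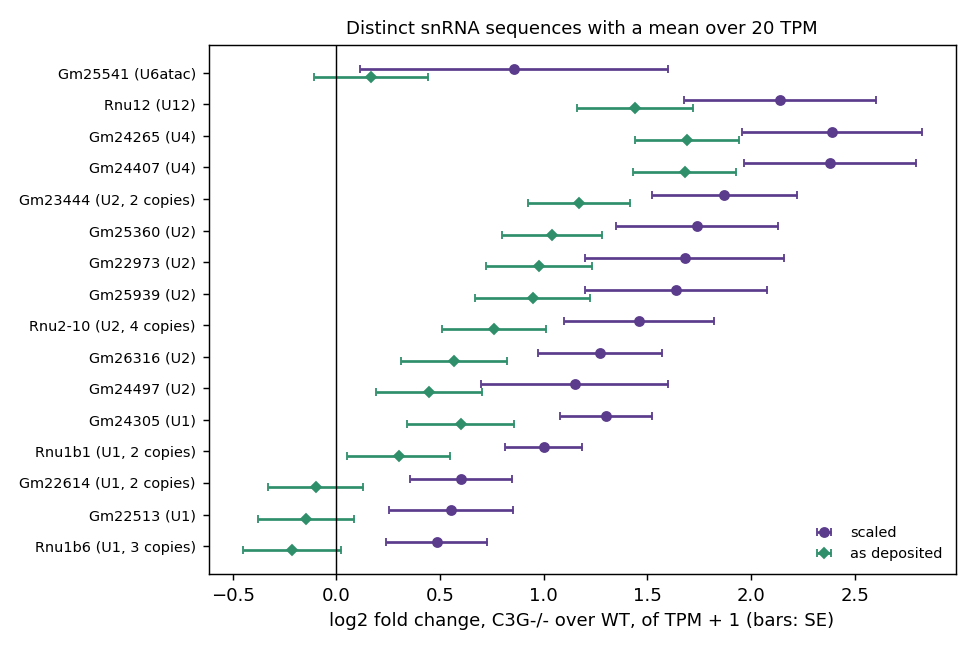
log2 fold change of TPM + 1, C3G-/- over WT, with its SE from limma, for the 16 distinct snRNA sequences with means over 20 TPM, after scaling (purple circles) and as deposited (green diamonds). All 16 lie above 0 after scaling, the 3 lowest U1 sequences lie below 0 as deposited, and the U4 genes lie highest on both scales.

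Over all members that reached 1 TPM in both groups, 38 genes with 30 distinct sequences, 16 rose after scaling and 0 fell (limma, and 21 and 0 at an unadjusted p under 0.05). Counted once per distinct sequence, 11 rose. With no filter on low values, where 55147 genes were tested, 0 of the 38 rose (limma, and 15 at an unadjusted p under 0.05). Without the first WT sample 7 genes rose, without the second 9 and without the first C3G-/- sample 5. Among all 12518 genes tested, 14.1% were called higher and 16.6% lower. Of the 22 members that did not pass, 14 were low genes and 8 abundant ones. The median log2 fold change of the 38 was 0.97, beside 0.01 over all genes tested. As deposited, 17 of the 38 rose and 3 fell, where 1.45% of all genes were called higher and 56.8% lower, with medians of 0.35 and -0.55. Without the second WT sample 10 rose as deposited, and without the first C3G-/- sample 5. The p-values as deposited do not use each gene's own spread, since limma's prior degrees of freedom were infinite there. The U4atac gene Gm22710, at 3.63, 0 and 0 TPM in WT and 14.6 and 0 TPM in C3G-/-, passed there (limma, adjusted p = 1.08e-09). It is among the 17 and did not pass after scaling (limma, adjusted p = 0.381). The abundant genes were above WT in both C3G-/- samples in 15 of 24 cases as deposited, against 1.49% of all genes tested, and in 23 of 24 cases after scaling, against 29.5%. They were below WT without overlap in 0 cases on either scale, against 75.7% of all genes as deposited and 29.3% after scaling. These 24 genes have only 16 distinct sequences, so identical copies, which are 1 measurement, were counted more than once here.

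The low genes rested on few fragments, and 14 of them reached 1 TPM in both groups. After scaling 0 of the 14 passed in limma (2 were higher at an unadjusted p under 0.05), and as deposited 3 were higher and 3 lower. The other 6 low genes reached 1 TPM in WT samples only and are given without a test. Gm23517, in an intron of Atxn10 on the opposite strand, was at 1.85, 1.21 and 2.11 TPM in WT and at 0 in both C3G-/- samples. Gm24041, in an intron of Tmem65, was at 3.67, 1.85 and 0 TPM in WT and at 0 in both C3G-/- samples. Both were named after their values were seen. Of the members, 0 reached 1 TPM in C3G-/- samples only. The filter favours such a split, because 2 of 3 WT samples sufficed but both C3G-/- samples were needed. At 165 bases, 1 fragment gave 1.30, 1.30 and 1.14 TPM in WT and 0.75 and 1.03 TPM in C3G-/-. No loss of low genes is concluded from this.

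The proteins that hold, make and process these RNAs were followed in 4 lists, all measured as mRNA. The lists held 111 genes, and all passed the filter. After scaling 25 rose and 6 fell (22.5% and 5.41%, beside 14.1% and 16.6% of all genes tested), 80 did not pass, and the median log2 fold change was 0.10, beside 0.01 over all genes tested. As deposited 0 rose and 51 fell (limma, and 0 and 63 at an unadjusted p under 0.05), which is 45.9% lower beside 56.8% of all genes, with a median of -0.55, beside -0.55 over all genes tested. Leaving out 1 sample gave 4 to 16 rises after scaling, so that each sample moved this count by more than 1.5 times, to 10 without the first WT sample, 6 without the second and 16 without the third and to 7 and 4 without the first and second C3G-/- sample. The count that fell as deposited was 8, 7 and 23 without each WT sample in turn and 13 and 107 without each C3G-/- sample. The directions given next are relative to the typical gene.

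Of the 17 Sm and LSm genes, which encode the rings that sit on Pol II-made snRNAs and on the U6 3′ end, 7 rose and 0 fell after scaling (limma, and 9 and 0 at an unadjusted p under 0.05), with a median log2 fold change of 0.29. That is 41.2% higher, beside 14.1% higher and 16.6% lower over all genes tested. Snrpd2, a core Sm protein, had 38.8, 43.6 and 45.4 TPM in WT and 37.0 and 44.7 TPM in C3G-/-, and its rise of 0.62 ± 0.16 (limma, adjusted p = 0.0309) was -0.06 as deposited. Lsm5, of the U6 ring, had 32.5, 40.3 and 32.8 TPM in WT and 28.4 and 36.5 TPM in C3G-/-, with 0.56 ± 0.14 after scaling (limma, adjusted p = 0.0259) and -0.12 as deposited. As deposited the groups overlapped for both. Both calls were lost without either C3G-/- sample, and that of Snrpd2 also without the first or second WT sample (limma, adjusted p from 0.0518 to 0.146 over both genes).

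Of the 38 particle-specific genes, 10 rose and 3 fell after scaling. Beside these 26.3% and 7.89%, 14.1% and 16.6% of all genes tested were called higher and lower. Zmat5 and Snrnp25, which had the highest rises, encode proteins of the U11/U12 particle, and the other 5 such genes of the list (Snrnp35, Snrnp48, Rnpc3, Zcrb1 and Pdcd7, named after their values were seen) did not pass, with log2 fold changes from -0.21 to 0.09. Zmat5 had 4.81, 3.29 and 4.49 TPM in WT and 3.87 and 4.97 TPM in C3G-/-, with 0.64 ± 0.14 (limma, adjusted p = 0.0197), and Snrnp25 had 0.52 ± 0.13 (limma, adjusted p = 0.0307). As deposited they had 0.07 (limma, adjusted p = 0.797) and -0.12 (limma, adjusted p = 0.660). Prpf8, the large U5 protein at the heart of the spliceosome, fell from 96.0, 87.1 and 78.6 TPM in WT to 27.9 and 48.0 TPM in C3G-/-, by 0.54 on the log2 scale after scaling (limma, adjusted p = 0.00711). Sart1, a tri-snRNP protein, fell by 0.36 on that scale (limma, adjusted p = 0.0109). As deposited, both C3G-/- values were below every WT value for Prpf8 and Sart1, which also held for 75.7% of all genes tested. The calls of Zmat5 and Snrnp25 were lost without either C3G-/- sample and that of Sart1 without the first, and that of Snrnp25 also without the first or second WT sample (limma, adjusted p from 0.0524 to 0.144).

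Of the 27 genes for snRNA transcription and 3′ end formation, 4 rose and 2 fell after scaling, or 14.8% and 7.41%, beside 14.1% and 16.6% of all genes tested. The share that rose was near that of all genes. Both that fell encode subunits of Integrator, the complex that cleaves nascent Pol II snRNAs. Ints6 had 30.0, 22.4 and 19.7 TPM in WT and 5.91 and 9.36 TPM in C3G-/-, and fell by 0.90 on the log2 scale after scaling (limma, adjusted p = 0.00259). Ints9, a partner of the cleaving subunit, fell by 0.56 (limma, adjusted p = 0.00444). Another Integrator gene, Ints12, rose by 0.38 ± 0.07 (limma, adjusted p = 0.00917), and Zfp143, a factor of snRNA gene promoters, rose by 0.34 ± 0.06 (limma, adjusted p = 0.00996). As deposited these rises read -0.22 and -0.26, and that of Zfp143 was lost without the second WT sample (limma, adjusted p = 0.0529).

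Of the 29 genes for snRNP assembly, snRNA modification and turnover, 4 rose and 1 fell after scaling, or 13.8% and 3.45%. The share that rose was again near the 14.1% of all genes, and 16.6% of all genes fell. The one that fell was Prmt5, the methyltransferase that modifies Sm proteins before ring assembly, with 36.3, 32.7 and 28.6 TPM in WT and 8.40 and 15.1 TPM in C3G-/-, a fall by 0.78 on the log2 scale after scaling (limma, adjusted p = 0.00258). Gemin4, of the SMN complex that loads the Sm ring, rose by 0.35 ± 0.09 (limma, adjusted p = 0.0302). Ncbp1, a subunit of the complex that binds the cap for snRNA export, rose by 0.34 ± 0.07 (limma, adjusted p = 0.0160). As deposited these were -0.30 and -0.32. Both were lost without the second WT sample or either C3G-/- sample, and that of Gemin4 also without the first WT sample (limma, adjusted p from 0.0565 to 0.123). Prpf8, Ints6, Ints9, Sart1 and Prmt5 were lower on both scales, but the values as deposited are not a separate check here. Scaling raised C3G-/- relative to WT for every gene, so a gene lower after scaling was bound to be lower as deposited. On that scale 56.8% of all genes tested were called lower.

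**Figure D5:**
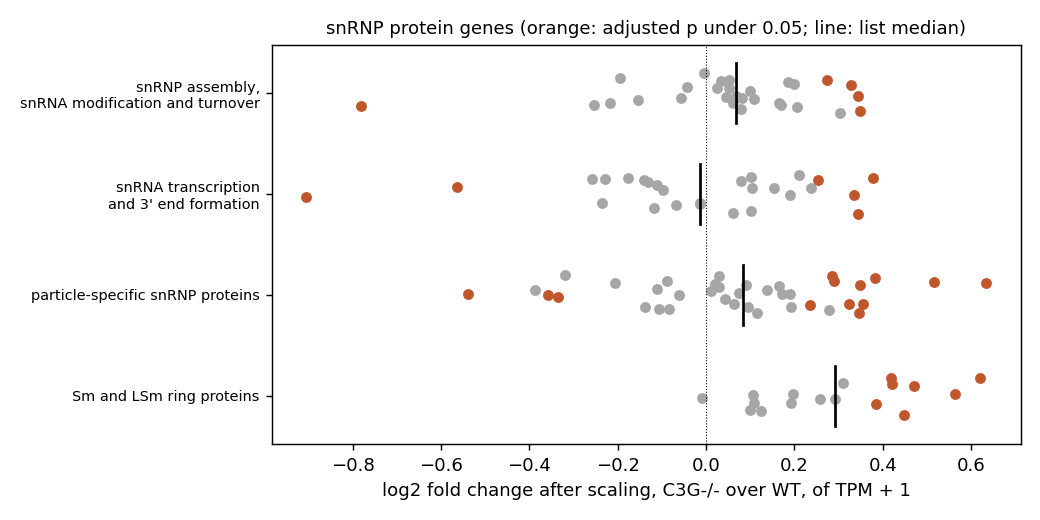
log2 fold change of TPM + 1 after scaling, C3G-/- over WT, for each of the 111 protein genes by list, with genes past the limma threshold in orange and the list median as a black line. The Sm and LSm list has its median at 0.29 and 7 genes past the threshold on the right and 0 on the left, and the other 3 lists have genes past it on both sides.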

How the data were processed

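RNA sequencing (NovaSeq6000, paired-end) was done on 3 WT and 2 C3G-/- samples of E14Tg2a cells. The authors used FastQC for read quality and STAR for alignment to GRCm38, and the deposited values are TPM per Ensembl transcript. The submitters' processing notes name bcl2fastq 2.20, FastQC 0.11.7, STAR 2.5.1b and RSEM 1.2.31, without a role. Library selection and strandedness are not given in the sources used here. The values hold no counts, so the depth per sample is unknown.

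Of 142647 transcripts, 141524 were matched to GENCODE M21, and TPM were summed by symbol. Genes with at least 1 TPM in at least 2 samples, 12518 in all, entered a two-sided limma test (limma 3.58.1, R 4.3.3) of log2(TPM + 1), in which the variance followed a trend with the mean, with Benjamini-Hochberg adjustment and a threshold of 0.05. Fold changes are on the log2(TPM + 1) scale, which understates the change of low genes. The main scale was TPM divided by median-of-ratios factors, with TPM as deposited beside it. Members that reached 1 TPM in one group only had no test. Sums and ratios were compared on the log2 scale, and the share among short genes in percentage points, by exact two-sided permutation tests (SciPy 1.17.1), which cannot go below p = 0.2 here.

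Families were set by symbol or by at least 80% identity over at least 80% of the gene to a reference. Transcript sequences came from GENCODE M21. Promoters were not analysed here. The steps of low values at one length were read as the most frequent value, matched between samples within 10%, and values were divided by them and rounded to whole fragments. The limma procedure was run on simulated data of 11801 genes with the same spread, 200 of them changed 3-fold. It recovered 100% of these, with 8 other calls. Genes of unequal spread, such as the snRNA genes, were not simulated, so this does not test the calls made on them.

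Genes named were every Rnu-named member, the 5 other members with the highest means, up to 5 largest rises and falls past the threshold, and up to 2 of each per protein list. Members, lists and tests were chosen with earlier results of these data known. The alternatives were other scalings, pseudocounts, filters, limma without the trend, each sample left out and a replicate block. The U4, U6atac and U4atac references, the family ratios, the steps, counting identical sequences once, and TPM as deposited together with a left-out sample or the block were added after seeing the data.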

Additional observations from a re-analysis of the deposited data

How the results depend on the processing

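Depth is unknown, and 3 samples against 2 limit the precision. Differences are log2 unless stated. The class sum (1.14) and the sums of U2 (1.60), U4 (2.38) and U12 (2.16) kept their direction under every alternative run. Leaving out 1 sample after scaling gave 0.881 to 1.40, 1.01 to 2.19, 1.74 to 3.02 and 1.56 to 2.76, and as deposited 0.383 to 0.482, 0.585 to 1.21, 1.32 to 2.05 and 1.13 to 1.79. The U1 sum was 0.64 after scaling (0.532 to 0.748 without 1 sample), -0.0597 as deposited and -0.443 to 0.323 there without 1 sample (-0.0371 without the first and -0.165 without the third WT sample). Summing Rnu-named genes only could not be run for U4 and U6atac, which have none. U6atac ranged from -0.10 to 1.84, but leaving out 1 sample as deposited was not run for it. The share among short genes differed by 4.02 to 6.69 percentage points without 1 sample, and by 5.82 and 2.11 with limits of 200 and 400 bases.

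The count of snRNA genes that rose was 16 after scaling, 17 as deposited and 0 with no filter on low values, and ranged without 1 sample from 5 to 18 after scaling and from 5 to 15 as deposited (10 without the second WT sample). The count that fell was 0 after scaling, 3 as deposited, 0 to 1 without 1 sample after scaling and 1 to 5 as deposited. Of the protein genes, 25 rose and 6 fell after scaling, 0 and 51 as deposited, and 3 and 0 with no filter. Without 1 sample 4 to 16 rose and 4 to 7 fell after scaling, and 0 rose and 7 to 107 fell as deposited (23 without the third WT sample, 13 without the first C3G-/- sample). Without a C3G-/- sample, the lone one left is assumed to vary like WT. Without a filter the adjustment runs over more genes, and beyond that the causes were not tested. Rapgef1 was lower throughout, from -0.438 to -0.389 without 1 sample after scaling and -1.22 to -0.809 as deposited.

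As deposited, the direction turned for Rnu1b6 and its copies (-0.21), Gm22614 and its copy (-0.10), Gm22513 (-0.15), Snrpd2 (-0.0621), Lsm5 (-0.12), Snrnp25 (-0.12), Ints12 (-0.22), Zfp143 (-0.26), Gemin4 (-0.30) and Ncbp1 (-0.32). U1b over U1a, -0.07, ranged from -0.25 to 0.11 without 1 sample, with 0.06 without the third WT sample.

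Replicate numbers 1 and 2 occur in both groups, but the deviations of same-numbered samples correlated at -0.179 and 0.181, so the samples share only a number. With a replicate block 19 snRNA genes rose and 1 fell after scaling, and 8 and 2 as deposited. Of the protein genes 17 rose and 5 fell, and as deposited 0 and 2. Rapgef1 was -0.40 (limma, adjusted p = 0.0239), and as deposited -1.07 (limma, adjusted p = 0.173). The mean within-pair differences were 1.15 for the class, 0.604 for U1, 1.70 for U2, 2.57 for U4, 2.54 for U12 and 1.40 for U6atac, and 5.71 percentage points for the share.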
